A study of Mus musculus with 12 samples.

Results

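Imprinted genes are expressed from 1 parental copy, and 38 of them, chosen by name from mouse genes known to be imprinted in at least some tissue, were described here across histone marks. All 38 were found among the 37252 genes of chromosomes 1 to 19 and X in the annotation, 33 as protein-coding and 5 as non-coding genes (H19, Meg3, Rian, Mirg and Airn). The data were 12 ChIP-seq libraries of C2C12, a mouse myoblast line derived from the C3H strain that fuses into myotubes when serum is withdrawn. H3K4me3, H3K4me2, H3K4me1, H3K27ac, H3K36me3 and H3K27me3 were each profiled in 1 library of near-confluent myoblasts in 10% serum and in 1 library of myotubes about 5 days after serum withdrawal, which had been parted from unfused cells by trypsin. All cells were at passages 15 to 18 and carried no other treatment. C2C12 is a single cell line of 1 inbred strain and the files hold read positions only, so no read could be given to the maternal or the paternal copy.

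In genomic imprinting, DNA methylation laid down in the egg or the sperm at imprinting control regions sets which parental copy of nearby genes is silent, and many imprinted genes lie in clusters that share such a region. H3K4me3 marks active or poised promoters, H3K27me3 is deposited by Polycomb repressive complex and accompanies silent genes, and H3K36me3 lies over transcribed gene bodies. A promoter that carries both H3K4me3 and H3K27me3 in a cell population may do so on 1 copy, on separate copies or in separate cells, and ChIP-seq reads do not tell these apart.

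The 12 libraries held 1858771 to 7033100 reads of 34 bp, and 0.417% to 3.137% of reads repeated the position and strand of another. The genome mean of a library was 0.727 to 2.75 reads per kb. Of 13 myotube marker genes, 12 had at least 2-fold more H3K4me3, H3K4me2 and H3K27ac at the promoter in the myotube than in the myoblast library. Of 7 myoblast marker genes, H3K27ac fell by this measure at 4 of the 5 with enough reads, when it fell at 40% of all promoters. H3K4me3 fell at 3 of 6 (7.59% of all promoters) and H3K4me2 at 2 of 6 (36.2%). H3K36me3 fell at 2 of 3 (9.04%) and H3K27me3 at 1 of 1 (17.1%). H3K4me1 rose at 2 of 6 (7.43%) and fell at none. Of 6 markers of other cell types, H3K4me3 was called at 2 in myoblasts and 1 in myotubes and H3K27ac at none. With 1 library for each mark and cell type there are no replicates, so no test was made, every difference is one between 2 libraries, and the intervals given (95%) cover counting error only.

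Each gene was given 1 promoter, a window of 1 kb either side of the start site with the most H3K4me3 reads, and its value is the fold of reads over the mean of the same library. This choice favours H3K4me3, and at some genes, such as H19, Grb10, Meg3 and Rian, it took a start inside the gene. Fewer cells with a mark and less of it per cell cannot be told apart in such bulk libraries. A mark was called at 2-fold or more with the Poisson interval above the genome mean. In practice the fewest reads that gave a call were 6 and 7 for H3K4me3 in myoblasts and myotubes, and 11 and 9 for H3K27me3, which correspond to 2.00-fold in the myoblast and 2.29-fold in the myotube H3K27me3 library.

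The promoters that carried the extremes of these marks differ in sequence, and a few are shown as read from the mm9 genome. The first set is the 250 bases just upstream of the promoter start of Mest, where both marks were called in both cell types, of Slc22a3 and Ascl2, which had the highest H3K27me3 in myotubes, of Airn, an active non-coding RNA promoter, and of Ube3a, which had the highest H3K27ac. Capitals mark CG dinucleotides, the sites of DNA methylation. Mest (chr6:30687800-30688049, plus strand, within an intron of a longer Mest transcript) held 14 of them. Slc22a3 (chr17:12700571-12700820, minus strand, intergenic) held 5 and Ascl2 (chr7:150155170-150155419, minus strand, intergenic) held 19. Airn (chr17:12934014-12934263, plus strand, an intron of Igf2r that also holds an exon of other Airn transcripts) held 4, and Ube3a (chr7:66483872-66484121, plus strand, intergenic) held 24.
Mest: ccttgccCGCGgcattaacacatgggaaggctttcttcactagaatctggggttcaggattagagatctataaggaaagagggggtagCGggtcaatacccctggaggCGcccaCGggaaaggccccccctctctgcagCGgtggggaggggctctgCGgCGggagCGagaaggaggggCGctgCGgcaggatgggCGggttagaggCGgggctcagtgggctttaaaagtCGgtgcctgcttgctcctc
Slc22a3: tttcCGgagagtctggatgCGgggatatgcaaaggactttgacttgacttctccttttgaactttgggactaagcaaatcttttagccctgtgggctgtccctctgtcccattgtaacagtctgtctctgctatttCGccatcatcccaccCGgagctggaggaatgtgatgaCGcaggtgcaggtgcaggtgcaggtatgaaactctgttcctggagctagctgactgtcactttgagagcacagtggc
Ascl2: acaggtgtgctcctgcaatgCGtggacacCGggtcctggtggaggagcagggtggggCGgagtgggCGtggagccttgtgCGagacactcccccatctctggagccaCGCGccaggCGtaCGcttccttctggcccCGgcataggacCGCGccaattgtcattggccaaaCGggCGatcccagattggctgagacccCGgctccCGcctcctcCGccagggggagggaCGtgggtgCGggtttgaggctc
Airn: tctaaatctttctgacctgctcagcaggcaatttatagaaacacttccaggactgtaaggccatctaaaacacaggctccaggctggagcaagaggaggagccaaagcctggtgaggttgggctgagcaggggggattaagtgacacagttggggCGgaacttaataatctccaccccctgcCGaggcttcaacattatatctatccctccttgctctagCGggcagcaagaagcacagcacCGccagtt
Ube3a: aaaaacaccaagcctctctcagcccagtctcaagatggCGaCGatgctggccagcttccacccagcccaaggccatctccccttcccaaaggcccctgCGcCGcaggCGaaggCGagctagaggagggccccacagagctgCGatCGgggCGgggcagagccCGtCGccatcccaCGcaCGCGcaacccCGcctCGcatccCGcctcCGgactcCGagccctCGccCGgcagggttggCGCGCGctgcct

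The second set shows TGCCGC, the hexamer bound by ZFP57, a zinc finger protein that maintains methylation at imprinting control regions. The 200 bases with the most matches on either strand outside annotated UTRs lay 632 bp downstream of the Snrpn promoter start (chr7:67149211-67149410, minus strand, intron) and 787 bp downstream of the Airn start (chr17:12935051-12935250, plus strand, in introns of Airn and Igf2r). Capitals mark TGCCGC or its complement GCGGCA, with 3 matches in each.
Snrpn: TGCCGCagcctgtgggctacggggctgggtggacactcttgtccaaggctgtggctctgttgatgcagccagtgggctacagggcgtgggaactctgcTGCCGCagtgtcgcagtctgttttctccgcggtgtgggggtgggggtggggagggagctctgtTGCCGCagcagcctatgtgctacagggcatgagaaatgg
Airn: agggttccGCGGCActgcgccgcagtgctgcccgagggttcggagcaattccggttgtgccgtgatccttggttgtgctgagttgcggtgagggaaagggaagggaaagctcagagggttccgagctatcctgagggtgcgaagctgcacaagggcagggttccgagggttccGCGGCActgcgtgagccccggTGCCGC

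In the 2 kb promoter windows, TGCCGC occurred at 23 of 38 imprinted genes (60.5%) and at 43.9% of the 22350 protein-coding promoters. The most matches were 12 at Mest, 10 at Snrpn and 7 at Airn. Nnat, Peg3 and Plagl1 had 6 each. GCTCG, the core that the transcription factor ZBED6 recognises, occurred in 33 of the 38 windows (86.8%) and in 73.5% of all promoters, with the most, 7, at Cd81. The imprinted windows also held more CG dinucleotides, with a median of 95 against 62 for all promoters and an observed to expected CpG ratio of 0.619 against 0.476. A window with more CG holds either motif more often by composition, and whether that accounts for the shares was not tested. The CpG ratio ranged from 0.0951 at Slc22a18 to 0.849 at Peg12. Its median was 0.654 in the 21 windows with H3K4me3 alone in myoblasts and 0.678 in the 10 with H3K27me3 alone, so these groups had similar CpG content.

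H3K4me3 was called at 25 of the 38 promoters in myoblasts and 22 in myotubes, while 54.6% and 54.3% of all protein-coding promoters were called. H3K27me3 was called at 14 promoters in myoblasts, against a background of 18.1%, and at 6 in myotubes, against 12.6%. The H3K4me3 share of the imprinted genes was 65.8% and 57.9%, and the H3K27me3 share was 36.8% and 15.8%. In myoblasts 21 promoters carried H3K4me3 alone, 10 H3K27me3 alone, 4 both and 3 (Magel2, Slc22a18 and Meg3) neither. In myotubes these numbers were 21, 5, 1 and 11. Of all protein-coding promoters, 49.4%, 12.9%, 5.21% and 32.5% were in these states in myoblasts. The shares in myotubes were 51.9%, 10.2%, 2.43% and 35.5%. The heat map of promoter folds shows these states gene by gene.

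**Figure D1:**
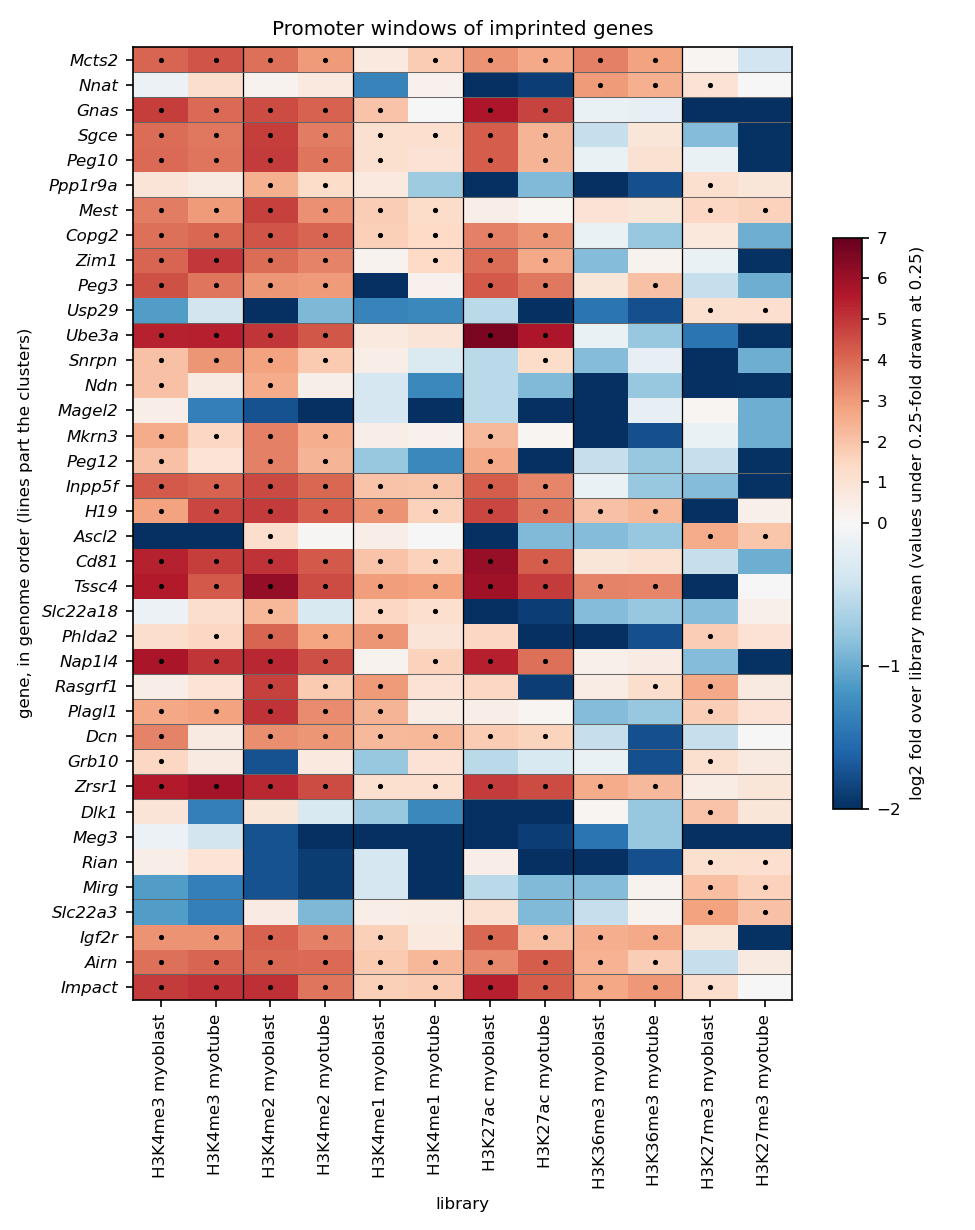
Fold of 6 histone marks in the promoter windows (1 kb either side of the start) of 38 imprinted genes, as log2 of reads over the library mean, with a column for each of 12 libraries and genes in genome order. Dots mark calls: H3K4me3 was called at 25 and 22 genes and H3K27me3 at 14 and 6 genes in myoblasts and myotubes, and the rows with H3K27me3 dots are mostly those without H3K27ac.

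Most promoters kept their state between the libraries, though a smaller share of them than of all protein-coding promoters. H3K4me3 alone stayed at 18 genes, H3K27me3 alone at 5 (Usp29, Ascl2, Rian, Mirg and Slc22a3), both marks at 1 (Mest) and neither at 3. Of all protein-coding promoters, 47.4%, 7.61%, 1.21% and 29.5% stayed in these states. Of the 14 promoters called for H3K27me3 in myoblasts, 8 were not called in myotubes, yet all 8 still had at least the library mean there, and only 1 of the 8 (Rasgrf1) had a ratio whose interval lay below 1. Only 4 of the 8 reached 20 reads in both libraries together, so a loss at the others was not detectable at this depth. Lost calls were common among all promoters too, of which 4042 were called for H3K27me3 in myoblasts. Of these, 905 with H3K27me3 alone and 128 with both marks were called for neither in myotubes. A further 138 with H3K27me3 alone and 554 with both were called for H3K4me3 alone there.

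By the parental copy that is known to be active, 18 genes are paternally expressed and 10 maternally expressed in many tissues, and 10 are imprinted only in certain tissues or in a complex way. In myoblasts H3K4me3 was called, alone or with H3K27me3, at 13 of the 18 paternally expressed genes and at 4 of the 10 maternally expressed genes. Of all protein-coding promoters, 54.6% were called. In myotubes 10 of the 18 had H3K4me3 alone and 1 both marks, and 5 of the 10 had H3K4me3 alone. These groups are small, and whether they differ was not tested. The median H3K4me3 in myoblasts was 6.22-fold and 2.07-fold in these 2 groups, and 24.0-fold in the group imprinted only in certain tissues. The median H3K27me3 was 1.09-fold, 1.73-fold and 0.638-fold in the same order. 4 paternally expressed genes had H3K27me3 alone in myoblasts, namely Nnat, Usp29, Rasgrf1 and Dlk1. The 4 maternally expressed genes with H3K27me3 alone were Ppp1r9a, Phlda2, Rian and Mirg. This state held 12.9% of all promoters in myoblasts. In myotubes it held 1 paternally and 2 maternally expressed genes, beside 10.2% of all promoters.

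Both H3K4me3 and H3K27me3 were called at the promoters of Mest, Plagl1, Grb10 and Impact in myoblasts and of Mest in myotubes. These are 4 and 1 of 38, while 5.21% of all protein-coding promoters in myoblasts and 2.43% in myotubes had both. By these shares 4 of 38 is above the background and 1 of 38 near it, but the numbers of genes are small. Mest, a hydrolase gene expressed from the paternal copy in mesoderm, had 26 H3K4me3 reads in myoblasts (11.98-fold, 7.83 to 17.6) and 20 in myotubes (7.75-fold, 4.74 to 11.98). Its H3K27me3 was 15 reads (2.73-fold, 1.53 to 4.51) and 12 reads (3.06-fold, 1.58 to 5.34). The Mest promoter was thus above the mean for both marks in all 4 libraries, with H3K4me3 the stronger in each. It had only 2 and 4 H3K27ac reads (1.38-fold and 1.08-fold), neither of which was called.

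Plagl1, a paternally expressed zinc finger regulator of cell growth, had 14 H3K4me3 reads in myoblasts (6.45-fold, 3.53 to 10.8) and 18 in myotubes (6.98-fold, 4.14 to 11.0). Its H3K27me3 was 18 reads in myoblasts (3.28-fold, 1.94 to 5.18) and 8 in myotubes (2.04-fold, 0.881 to 4.02), which is 1 read short of a call. Plagl1 thus had H3K4me3 of like height in both libraries, and its H3K27me3 ratio of myotube to myoblast was 0.622 (0.234 to 1.503), an interval that includes 1. Impact, a paternally expressed regulator of translation, had 64 and 86 H3K4me3 reads (29.5-fold and 33.3-fold), and 13 and 4 H3K27me3 reads (2.37-fold, 1.26 to 4.05, and 1.02-fold, 0.278 to 2.61). Its call of both marks in myoblasts thus rests on 13 H3K27me3 reads. Grb10, a growth factor receptor adaptor, was called for H3K4me3 in myoblasts on the fewest reads possible, 6 (2.77-fold, 1.01 to 6.02), with 12 H3K27me3 reads (2.19-fold, 1.13 to 3.82). In myotubes Grb10 had 4 and 6 reads (1.55-fold and 1.53-fold) and neither call. The Grb10 start used (chr11:11870645, minus strand) lies far inside the gene (11830511 to 11938686). In this window H3K4me2 and H3K27ac had 1 read each in myoblasts (0.298-fold and 0.688-fold), and neither was called.

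The calls of both marks were sensitive to how they were made. Against the 200 kb around each promoter instead of the genome, 1 promoter (Mest) kept both in each cell type. At a 3-fold call 1 was left in myoblasts (Plagl1) and 1 in myotubes (Mest). With the outermost start site of each gene, 2 had both in myoblasts (Plagl1 and Impact) and 1 in myotubes (Grb10). With windows of 500 bp either side, 5 had both in myoblasts (Mest, Phlda2, Plagl1, Igf2r and Impact) and 1 in myotubes (Mest). With every library thinned to the smallest, 1 was left in myoblasts (Impact) and 1 in myotubes (Mest). The deposited MACS peaks of H3K4me3 and H3K27me3 met at no imprinted promoter in myotubes. In myoblasts they met at 14 with the lists as deposited and at 0 with the H3K27me3 and H3K27ac lists exchanged. The myoblast list deposited with the H3K27me3 sample held H3K27ac reads at 36.4-fold and H3K27me3 reads at 0.804-fold, and the list that came with the H3K27ac sample had a mean of 6.76-fold for H3K27me3 reads, so the 2 lists go against their labels. Of the 14, only Impact was called for H3K27me3 by its reads.

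**Figure D2:**
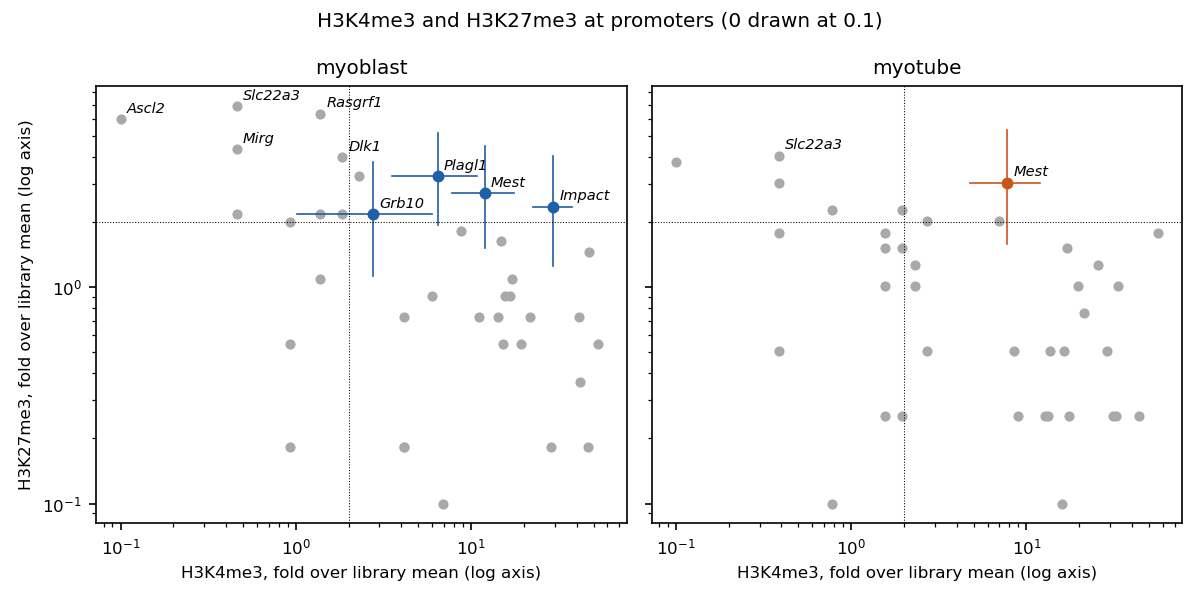
H3K4me3 against H3K27me3 at the promoters of the 38 genes, as fold over the library mean on log axes, in myoblasts (left) and myotubes (right), with dotted lines at 2-fold. Coloured points with 95% counting intervals are promoters with both marks called, Mest, Plagl1, Grb10 and Impact in myoblasts and Mest in myotubes, and the remaining points lie mostly along one axis or the other.

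The highest H3K27me3 of any imprinted promoter was at Slc22a3, an organic cation transporter gene that is imprinted in placenta. It had 38 reads in myoblasts (6.92-fold, 4.90 to 9.50) and 16 in myotubes (4.08-fold, 2.33 to 6.62), with 1 H3K4me3 read in each. Rasgrf1, a guanine nucleotide exchange factor, had 35 H3K27me3 reads in myoblasts (6.38-fold) and 6 in myotubes (1.53-fold), and Ascl2, a placental bHLH factor, had 33 and 15 (6.01-fold and 3.82-fold). Slc22a3 and Ascl2 were thus strong in both libraries and Rasgrf1 in myoblasts. Ascl2 had no H3K4me3 read in either library, which allows up to 1.38-fold in myoblasts and 1.16-fold in myotubes (3 reads). The lowest H3K27me3 was at H19 in myoblasts, with no read (up to 0.547-fold), and at Gnas and Meg3 in myotubes, also with no read.

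The highest H3K4me3 was at Nap1l4, a nucleosome assembly gene, in myoblasts (115 reads, 53.0-fold, 43.8 to 63.6) and at Zrsr1, a splicing-related retrogene, in myotubes (145 reads, 56.2-fold, 47.4 to 66.1). The other library had 84 reads at Nap1l4 (32.6-fold) and 102 at Zrsr1 (47.0-fold). Both promoters were among the strongest in each cell type. The Zrsr1 window overlaps the promoter window of Commd1, its host gene, and the windows of Sgce and Peg10, whose starts face each other, cover nearly the same bases, so neither pair gives 2 separate measurements.

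H3K4me2 was called at 29 and 26 imprinted promoters (61.7% and 59.0% of all promoters), H3K4me1 at 18 and 15 (48.6% and 47.6%) and H3K27ac at 20 and 19 (51.6% and 50.6%). H3K36me3 was called at 8 and 10 (13.7% and 11.5%). The highest H3K4me2 was at Tssc4 in myoblasts (235 reads, 70.0-fold) and Zrsr1 in myotubes (88 reads, 23.7-fold). H3K4me1, a mark of enhancers and promoter edges, peaked at H19 in myoblasts (44 reads, 8.68-fold) and Tssc4 in myotubes (35 reads, 7.13-fold). H3K27ac peaked at Ube3a, a ubiquitin ligase gene imprinted in neurons only, with 142 reads in the myoblast library (97.7-fold, 82.3 to 115) and 190 in the myotube library (51.4-fold, 44.4 to 59.3). H3K36me3 in the promoter window was highest at Mcts2 in myoblasts (64 reads, 11.6-fold) and Tssc4 in myotubes (36 reads, 10.7-fold). Both are short genes whose bodies lie largely inside the window. The whole body held only 23 reads at Mcts2 in myoblasts and 21 at Tssc4 in myotubes, so part of the window reads lay outside the gene.

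The lowest values were at genes with 0 or 1 read. H3K4me2 had no read at Usp29 in myoblasts and at Magel2 and Meg3 in myotubes. H3K4me1 had none at Peg3 in myoblasts and at Magel2, Meg3 and Mirg in myotubes. H3K27ac had none at 6 promoters in each library, and H3K36me3 none at Ppp1r9a, Phlda2 and Rian in myoblasts. In myotubes the lowest H3K36me3 was 1 read (0.296-fold), at Ppp1r9a among others. Meg3, the maternally expressed RNA of the Dlk1 cluster, had 12 reads in all 12 libraries together, which is 0.265 of their summed mean and the least of the 38. In its window 87.5% of 32-base stretches occur once in the genome, and Rian (78.5%) and Zim1 (83.1%) were the only windows with a lower share. The starts used for Meg3 (chr12:110783608) and Rian (chr12:110884372) lie inside these genes, which begin at 110779211 and 110842155.

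Over the annotated genes, H3K36me3 was called at 14 imprinted genes in each cell type, when 41.8% and 41.5% of protein-coding genes were called. The 3 highest in myoblasts were Mcts2 (10.5-fold), Nnat (9.67-fold) and Cd81 (9.53-fold), and in myotubes Cd81 (10.5-fold), Mcts2 (9.72-fold) and Tssc4 (6.75-fold). Called genes ranged from 2.24-fold, at Dcn, to 10.5-fold in myoblasts and from 2.38-fold, at Mest, to 10.5-fold in myotubes. Mcts2 lies within another gene and Nnat within an intron of Blcap, so their reads may belong to the host. At Tssc4 the deposited myotube H3K36me3 peak (chr7:150248949-150255375) starts within Cd81 and ends just inside Tssc4, which starts at 150255154. Whether the Tssc4 reads belong to Cd81 was not tested.

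H3K27me3 was called over 9 gene bodies in myoblasts and 8 in myotubes, against 14.0% and 14.3% of protein-coding genes. The 3 highest were Ascl2 (7.61-fold), Plagl1 (4.87-fold) and Slc22a3 (4.55-fold) in myoblasts, and Plagl1 (4.44-fold), Slc22a3 (4.07-fold) and Usp29 (2.93-fold) in myotubes. No gene had both H3K36me3 and H3K27me3 called over its body in either cell type. The 50 kb flanks carried H3K27me3 at 12 genes in myoblasts and 10 in myotubes (12% and 12.6% of protein-coding genes), highest at Plagl1 (3.56-fold and 3.20-fold) and at Nnat (3.55-fold and 2.91-fold). At Nnat and Igf2r, H3K36me3 was called over the body and H3K27me3 over the flanks in both cell types, the latter at 2.48-fold and 2.31-fold for Igf2r. At Gnas this was so in myoblasts (2.59-fold H3K36me3 over the body and 2.12-fold H3K27me3 over the flanks).

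**Figure D3:**
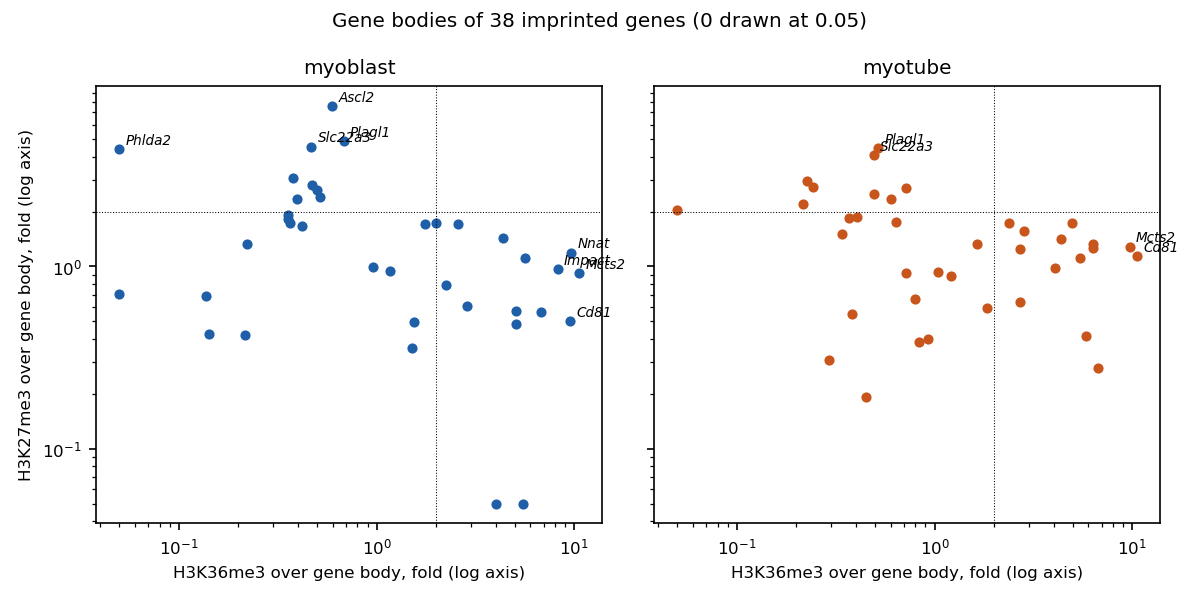
H3K36me3 against H3K27me3 over the bodies of the 38 genes, as fold over the library mean on log axes, in myoblasts (left) and myotubes (right), with dotted lines at 2-fold. No gene lies above 2-fold for both marks with a call, and Plagl1 and Slc22a3 stand at the H3K27me3 end in both cell types (4.87-fold and 4.55-fold in myoblasts).

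Within 7 clusters of members under 3 Mb apart, which hold 28 of the 38 genes, both marks were placed in 5 kb bins across the genes and 50 kb around them. Of 603 bins, 166 (27.5%) were called for H3K27me3 in myoblasts and 161 (26.7%) in myotubes, whereas 10.8% and 12.1% of genome bins were. H3K4me3 was called in 35 and 44 bins (5.80% and 7.30%), close to the genome at 5.16% and 6.38%. Only 4 bins in myoblasts and 3 in myotubes had both, 0.663% and 0.498% of bins, near the 0.488% and 0.576% of the genome. Thus 11.4% of the cluster bins with H3K4me3 also had H3K27me3 in myoblasts and 6.82% in myotubes, beside 9.45% and 9.03% of such bins in the genome. With the genes that stand alone, 7 of 898 bins had both in myoblasts and 9 in myotubes. At a 3-fold call no cluster bin had both marks.

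The cluster of Slc22a3, Igf2r and Airn (chromosome 17) had the most H3K27me3. There 57 of 93 bins were called in myoblasts and 58 in myotubes, with 8 and 9 H3K4me3 bins and 2 bins with both in each cell type. Airn, the paternally expressed antisense RNA that silences Igf2r in cis, starts within Igf2r, the receptor that carries growth factor IGF2 to lysosomes. The 5 kb bin at the Airn start had 29 H3K4me3 reads (5.35-fold) and 9 H3K27me3 reads (0.656-fold) in myoblasts, and 49 (7.60-fold) and 10 (1.02-fold) in myotubes. The bins called for H3K27me3 thus lay to either side of the Airn and Igf2r starts and over Slc22a3, up to 6.63-fold in a bin. The Igf2r promoter had 19 and 23 H3K4me3 reads (8.76-fold and 8.92-fold). Its H3K27me3 was 10 reads in myoblasts (1.82-fold, 0.874 to 3.35), 1 short of a call, and 1 in myotubes (0.255-fold). None of the bins with both marks held either start. Those bins had 12 to 14 H3K4me3 reads in the library with the call.

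The cluster of Dlk1, Meg3, Rian and Mirg (chromosome 12) was nearly free of H3K4me3. It had 36 H3K27me3 bins of 80 in myoblasts and 29 in myotubes, 1 H3K4me3 bin in myoblasts and none in myotubes. Dlk1, a Notch-related inhibitor of differentiation, had 22 H3K27me3 reads at its promoter in myoblasts (4.01-fold) and 7 in myotubes (1.78-fold), and 4 and 1 H3K4me3 reads (1.84-fold and 0.388-fold). The promoter with the highest H3K27me3 in this cluster was that of Mirg, a non-coding RNA that hosts microRNAs (24 and 12 reads, 4.37-fold and 3.06-fold).

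The cluster from H19 to Nap1l4 (chromosome 7) alternated between the marks. Of its 96 bins, 11 in myoblasts and 18 in myotubes carried H3K4me3, and 39 and 36 carried H3K27me3, with 1 bin of both in each. H3K4me3 bins lay nearest to H19, Cd81, Tssc4, Nap1l4 and, 1 bin, Ascl2. H3K27me3 bins were most frequent next to Ascl2, its highest promoter, and Slc22a18, and none lay nearest to Cd81. The bin with both marks in myoblasts lay upstream of H19 at chr7:149765001-149770000 (18 H3K4me3 reads, 3.32-fold, and 29 H3K27me3 reads, 2.11-fold), and had 29 and 15 reads (4.50-fold and 1.53-fold) in myotubes.

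**Figure D4:**
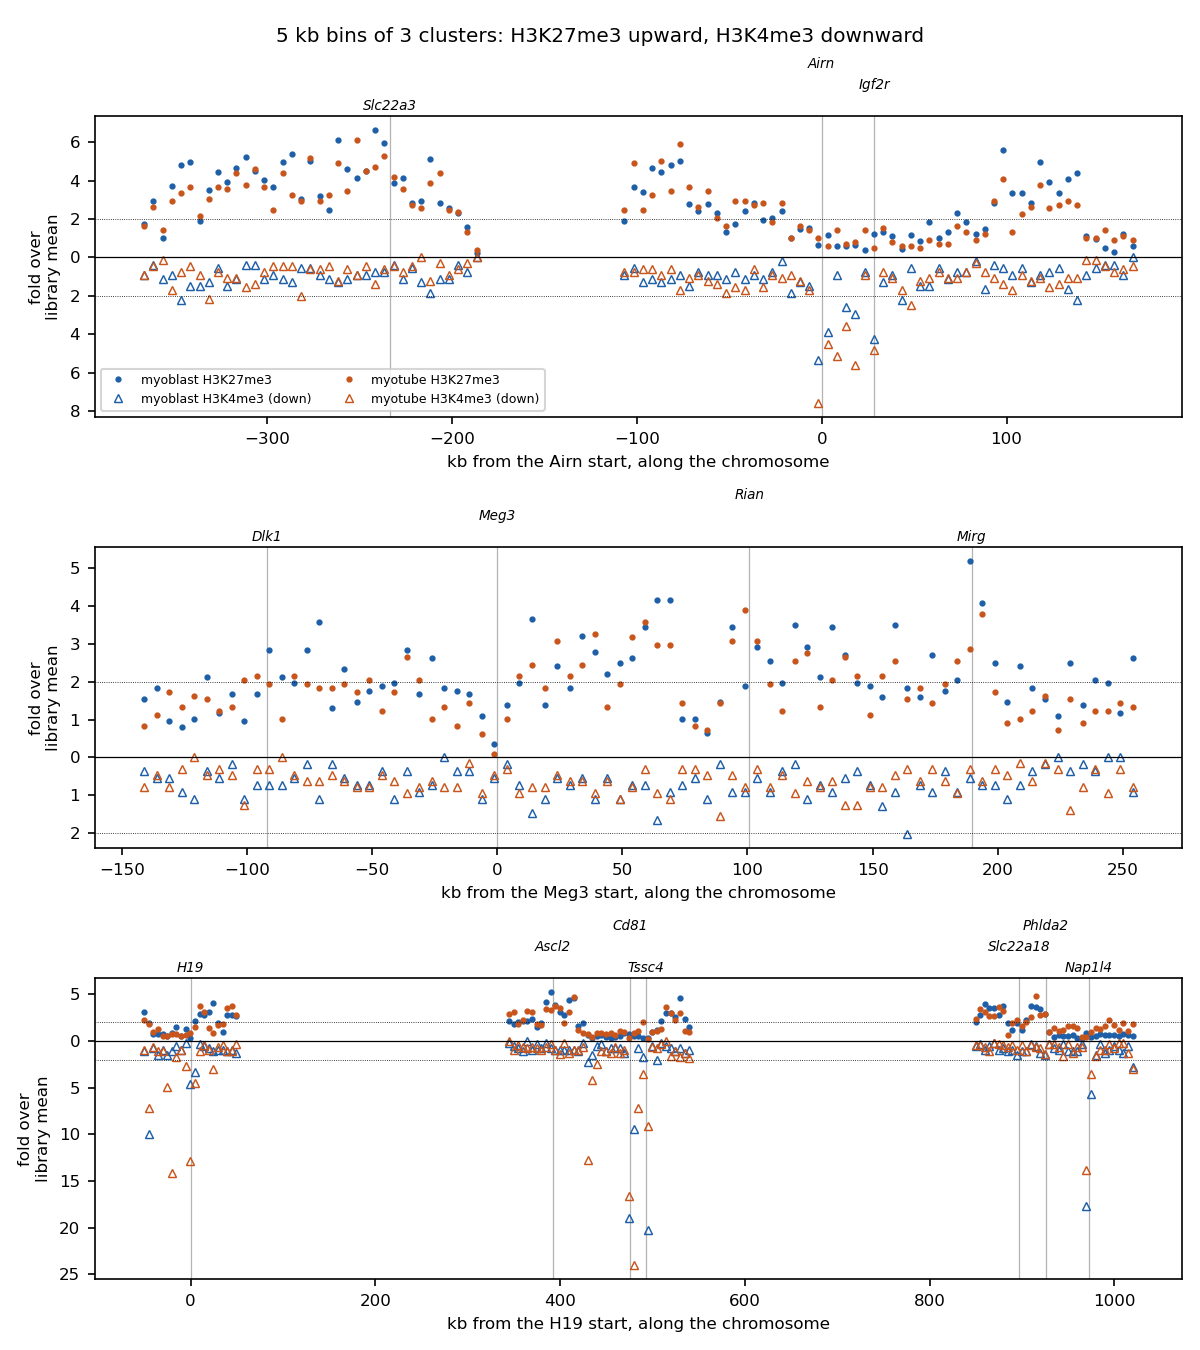
Fold over the library mean in 5 kb bins of 3 clusters, along the chromosome in kb from the start of Airn, Meg3 or H19, with H3K27me3 as dots upward and H3K4me3 as triangles downward, grey lines at member starts and dotted lines at 2-fold. H3K27me3 is broad over Slc22a3 and low around the Airn and Igf2r starts (0.656-fold H3K27me3 and 5.35-fold H3K4me3 in the myoblast bin of the Airn start), and the Meg3 cluster has 1 called H3K4me3 bin in myoblasts.

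The cluster of Ube3a, Snrpn, Ndn, Magel2, Mkrn3 and Peg12 (chromosome 7), deleted or silenced in Prader-Willi and Angelman syndromes in man, had no H3K27me3 bin among 130 in either cell type, and 6 and 4 H3K4me3 bins. Its mean H3K27me3 was 0.518-fold and 0.461-fold. Ube3a, its first gene, had 91 and 113 H3K4me3 reads (41.9-fold and 43.8-fold). Snrpn, a splicing protein gene next to the imprinting control region, had 9 H3K4me3 reads in myoblasts (4.15-fold) and 22 in myotubes (8.53-fold), at the start 135063 bp inside its outermost one. The highest H3K27me3 at a promoter of this cluster was 6 reads at Magel2 in myoblasts (1.09-fold), and no promoter here was called for this mark.

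The Zim1, Peg3 and Usp29 cluster (chromosome 7) had 3 and 7 H3K4me3 bins of 51 and 0 and 1 of H3K27me3. Zim1, a zinc finger gene, had 36 and 80 H3K4me3 reads (16.6-fold and 31.0-fold). Usp29 had the highest promoter H3K27me3 in this cluster, with 12 and 9 reads (2.19-fold and 2.29-fold) at its annotated start. The annotation gives Usp29 only 1 start and 2610 bp, so any other start of this gene was not measured. In the cluster of Sgce, Peg10 and Ppp1r9a (chromosome 6) 2 and 1 of 109 bins had H3K4me3 and 24 and 26 had H3K27me3, with 1 bin of both in myoblasts. Sgce, which encodes epsilon-sarcoglycan, had 33 H3K4me3 reads in each library (15.2-fold and 12.8-fold), and Ppp1r9a had the highest H3K27me3 (12 and 7 reads, 2.19-fold and 1.78-fold). The Mest and Copg2 cluster (chromosome 6) had 4 and 5 H3K4me3 bins of 44, 10 and 11 of H3K27me3 and none of both, although the Mest promoter window itself had both calls. Among genes that stand alone, 25 of 28 bins at Plagl1 and 28 of 42 at Grb10 carried H3K27me3 in myoblasts, and none of 20 at Zrsr1, 20 at Mcts2, 28 at Dcn and 37 at Inpp5f did.

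Several genes have start sites over 2 kb apart, and the marks differed between them. At Mest 4 groups of starts were measured, and 1 of them had H3K4me3. The group 8421 bp from the outermost start had H3K27me3 alone (17 reads, 3.10-fold, in myoblasts and 20, 5.10-fold, in myotubes), and the group at 14503 bp was the one with both marks. At Gnas, which encodes a G protein alpha subunit and has promoters used from either or both parental copies, the group at 45777 bp had 62 and 41 H3K4me3 reads (28.6-fold and 15.9-fold) and 1 and 0 of H3K27me3. The upstream Gnas groups at 936 bp and 13539 bp had 21 and 19 H3K27me3 reads in myoblasts (3.83-fold and 3.46-fold) and 4 H3K4me3 reads each (1.84-fold), and the second was called for H3K4me3 in myotubes with 7 reads (2.71-fold). At Plagl1 the first of 4 groups had both marks and the other 3 had H3K27me3 alone, from 4.37-fold to 7.47-fold in myoblasts. At Grb10 all 6 groups were called for H3K27me3 in myoblasts, from 2.00-fold to 5.83-fold, and the highest was at the outermost start, which also had 7 H3K4me3 reads (2.71-fold) in myotubes. At Igf2r the starts ranged from 2.30-fold and 10.5-fold H3K4me3 in myoblasts and myotubes at 18252 bp to 2.73-fold and 3.57-fold H3K27me3 at 68385 bp. Of the other genes with several groups, Cd81, Dcn, Inpp5f, Meg3, Peg3, Sgce, Snrpn and Zim1 had no group called for H3K27me3, with 0 to 1.46-fold, and Airn, Dlk1, Mirg, Ppp1r9a and Rian had at least 1 in myoblasts, from 2.19-fold to 4.37-fold.

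Between the libraries, the myotube to myoblast ratio of promoter reads, scaled by total reads, was called at 2 or more or 0.5 or less with an interval off 1 and at least 20 reads in both together. The median ratio of all protein-coding promoters was 0.869 for H3K4me3, 0.590 for H3K4me2, 0.861 for H3K4me1, 0.577 for H3K27ac, 0.932 for H3K36me3 and 0.754 for H3K27me3, and changes are read against these. For H3K4me3, 1 of 22 imprinted promoters rose and 2 fell, against 3.58% and 7.59% of all promoters. For H3K4me2, 0 of 28 rose and 13 fell (2.41% and 36.2%), and for H3K4me1, 0 of 20 rose and 5 fell (7.43% and 18.0%). For H3K27ac, 0 of 17 rose and 8 fell (5.21% and 40%), and for H3K36me3, 0 of 9 did either (6.79% and 9.04%). For H3K27me3, 0 of 10 rose and 1 fell (1.41% and 17.1%). Scaled by the median promoter ratio instead, 3 promoters rose for H3K4me3, 3 fell for H3K4me2 and 4 fell for H3K27ac, so that 10 of the 13 H3K4me2 falls and 4 of the 8 H3K27ac falls were no longer called. H19, Tssc4 and Dcn kept their H3K4me3 calls in that scaling, and Zim1 and Snrpn were added.

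H19, a maternally expressed non-coding RNA of embryonic and differentiating muscle, was the gene whose H3K4me3 rose. It had 15 reads in myoblasts (6.91-fold, 3.87 to 11.4) and 66 in myotubes (25.6-fold, 19.8 to 32.6), a ratio of 3.70 (2.09 to 6.98). H3K4me1 at the same window fell from 44 to 15 reads (ratio 0.352, 0.182 to 0.645), while H3K4me2 went from 100 to 67 reads (ratio 0.605, 0.437 to 0.832) without a call. H3K27ac had 37 reads in the smaller myoblast library and 48 in the myotube library, a scaled ratio of 0.510 (0.325 to 0.806) that was lower in myotubes but not called. The H19 window thus was called for all of these marks in both cell types. It overlaps the window of Mir675, the microRNA within H19. The largest fall of H3K4me3 was at Dcn, which encodes the matrix proteoglycan decorin, from 24 to 4 reads (ratio 0.140, 0.0354 to 0.408), with 32 H3K4me2 reads in each library. Tssc4 fell from 101 to 51 reads (ratio 0.425, 0.297 to 0.600).

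Rasgrf1 had the largest fall of H3K4me2, from 93 to 13 reads (ratio 0.126, 0.0648 to 0.226), and the only called fall of H3K27me3, from 35 to 6 (ratio 0.240, 0.0825 to 0.576). Its H3K4me1 fell from 40 to 10 reads (ratio 0.258, 0.115 to 0.525). In myoblasts the Rasgrf1 promoter therefore had H3K4me2, H3K4me1 and H3K27me3 without an H3K4me3 call (3 reads, 1.38-fold). In myotubes H3K4me2 was still called there (3.49-fold, 1.86 to 5.98), as was H3K36me3 (8 reads, 2.37-fold), and H3K4me1 and H3K27me3 were not. The largest fall of H3K4me1 was at Phlda2, a maternally expressed inhibitor of placental growth, from 43 to 9 reads (ratio 0.216, 0.0926 to 0.450). That of H3K27ac was at Igf2r, with 24 reads in the smaller myoblast library and 16 in the myotube library (ratio 0.262, 0.130 to 0.515).

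**Figure D5:**
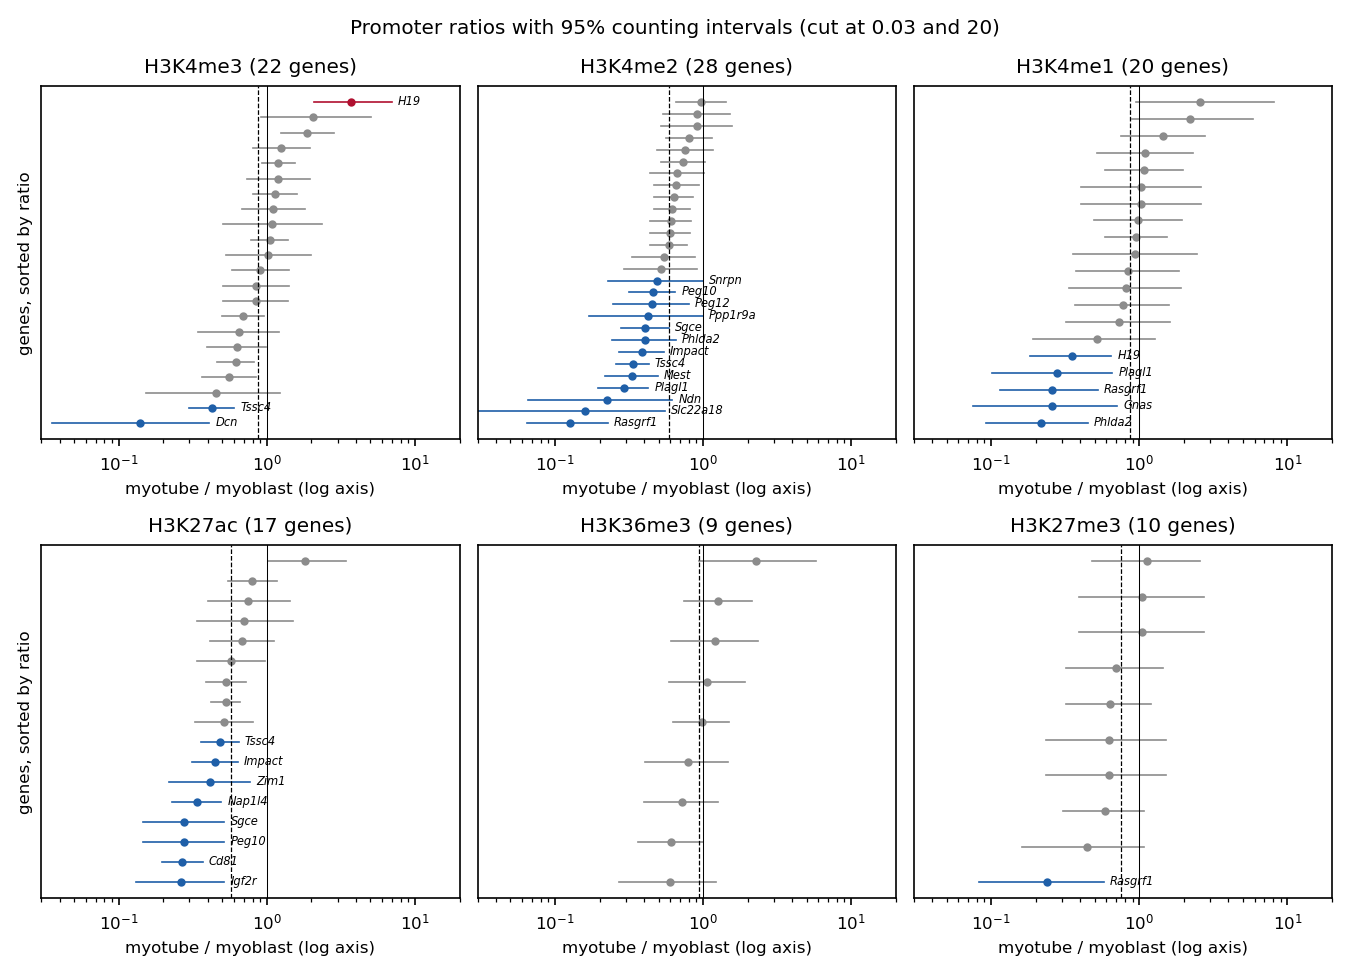
Myotube over myoblast ratio of promoter reads for each mark, on log axes, for imprinted genes whose 2 libraries sum to 20 reads or more, with 95% counting intervals, a solid line at 1 and a dashed line at the median of all protein-coding promoters. H19 is the called rise (H3K4me3, 3.70), and the H3K4me2 and H3K27ac points lie around dashed lines at 0.590 and 0.577.

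Of 32 further imprinted genes, 28 were found in the annotation. H3K4me3 was called at 10 and 12 of the 28, a lower share than the 54.6% and 54.3% of all promoters. H3K27me3 was called at 12 and 5, beside 18.1% and 12.6%. Both marks were called at 1 in myoblasts (Ddc, 8 and 13 reads, 3.69-fold and 2.37-fold) and at none in myotubes. Tspan32, a tetraspanin gene of the H19 region, rose in H3K4me3 from 5 to 56 reads (ratio 9.42, 3.81 to 30.1) and in H3K27ac from 3 to 52 (ratio 6.82). Kcnq1, a potassium channel gene of the same region, rose in H3K4me2 from 4 to 24 and in H3K4me1 from 6 to 36 reads (ratios 5.42 and 6.20). Cdkn1c, a cell cycle inhibitor, fell in H3K4me2 from 62 to 11 reads and in H3K4me1 from 40 to 4 (ratios 0.160 and 0.103). Nap1l5 rose in H3K36me3 (31 to 41 reads, ratio 2.16) and Sfmbt2 fell in H3K27me3 (18 to 4 reads, ratio 0.311). The other called falls were of H3K4me2 at H13, Atp10a, Gab1, Htr2a, Trappc9 and Qpct, of H3K4me1 at Casd1, Gab1 and Qpct, and of H3K27ac at H13, Casd1 and Atp10a, with ratios from 0.189 to 0.462. In all, H3K4me2 fell at 7 of 14 compared, H3K4me1 at 4 of 13 and H3K27ac at 3 of 9. These marks fell at 36.2%, 18.0% and 40% of all promoters. H3K27me3 fell at 1 of 9 (17.1%). H3K4me3 rose at 1 of 9 (3.58%), H3K4me2 at 1 of 14 (2.41%) and H3K4me1 at 1 of 13 (7.43%). H3K27ac rose at 1 of 9 (5.21%) and H3K36me3 at 1 of 3 (6.79%).

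Of 24 genes that set or keep imprints, such as DNA methyltransferases and chromatin regulators, 19 and 20 carried H3K4me3, beside 54.6% and 54.3% of all promoters, and 1 and 2 H3K27me3, beside 18.1% and 12.6%. H3K4me3 fell at 4 of 19 compared, H3K4me2 at 6 of 19 and H3K27ac at 9 of 16, while 7.59%, 36.2% and 40% of all promoters fell. The falls of H3K4me3 were at Dnmt3b, a de novo methyltransferase (46 to 21 reads, ratio 0.384), Uhrf1, which guides Dnmt1 to replicating DNA (120 to 67, 0.470), Smchd1 (134 to 77, 0.483) and Hells (82 to 43, 0.441), and rose at none. H3K27ac at Uhrf1 went from 102 to 14 reads (ratio 0.0540, 0.0285 to 0.0948), the lowest called ratio of this list. Called falls of H3K4me2 were at Dnmt3b, Tet3, Trim28, Dnmt3a, Uhrf1 and Smchd1 (0.287 to 0.430), and those of H3K27ac also at Ehmt1, Tet3, Trim28, Dnmt1, Kdm1b, Uhrf2, Smchd1 and Hells (0.142 to 0.424). H3K4me1 fell at Trim28, Dnmt3a and Uhrf2 and rose at Ctcf, which binds insulators at imprinting control regions (5 to 17 reads, ratio 3.51). These are 3 and 1 of 14 compared, beside 18.0% and 7.43% of all promoters. Dnmt3l, the cofactor needed to lay down imprints in germ cells, was the only one with both marks, in myotubes (7 H3K4me3 reads, 2.71-fold, and 16 H3K27me3 reads, 4.08-fold).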

How the data were processed

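ChIP-seq of 6 histone marks in C2C12 myoblasts and myotubes was deposited by the authors as aligned reads, each a count of 1, and as MACS peaks with a score. The authors aligned reads to mm9 and kept unique alignments. Which aligner made the myotube files, the settings of MACS and the removal of duplicates are not given in the sources used here, and no input library was used. The peak score serves only within its list. The lists deposited with the myoblast H3K27me3 and H3K27ac samples go against their labels, so they were used as deposited and exchanged. Peaks served only as an alternative and, at Tssc4, to place H3K36me3.

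Genes came from GENCODE M1 and sequence from NCBI build 37, the same assembly as mm9. Reads were extended to 150 bp and midpoints counted on chromosomes 1 to 19 and X (2555806925 bases other than N). Fold is reads over the library mean, with exact Poisson intervals. Ratios of 2 libraries have exact conditional binomial intervals, and a count of 0 was set to 3 reads. Bins needed 50% of their bases known. Clusters were members under 3 Mb apart. Flanks were the 50 kb on either side without the gene. Backgrounds are the 22350 protein-coding promoters or genes and all 5 kb bins.

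The members, gene lists and motifs were chosen with earlier results of these data known. Genes named with values were those with both marks, the highest and lowest fold for each mark, the largest called rises and falls, the 3 highest gene bodies, the first gene and the highest H3K27me3 of each cluster, and listed genes with both marks or a called change. The exceptions are Airn, Igf2r, Nnat, Meg3, Tssc4, and Rasgrf1 and Ascl2 for promoter H3K27me3, singled out after their values were seen. Alternatives changed 1 choice at a time, and the steps were tested on simulated data. The tools were scipy 1.17.1 and numpy 2.4.6, with tables in pandas 2.3.3 and plots in matplotlib 3.10.9, under Python 3.11.15.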

Additional observations from a re-analysis of the deposited data

How the results depend on the processing

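No paired analysis was possible because every mark and cell type has 1 library, and no library could be left out. Of 180 recomputed counts and shares, 150 stayed within 1.5 times the reported value and 30 did not. Of the medians and named gene values, 251 stayed the same, 21 lost a call, 2 gained one and 3 medians left their reported interval. Only the named ratios, of H19, Tssc4, Dcn and Rasgrf1, could change direction, and none did. Promoters called for H3K27me3 were 5, 7 and 8 in myoblasts against local background, at a 3-fold call and in thinned libraries, and 2 in myotubes against local background. Those called for H3K4me1 were 11 and 9 in thinned libraries and 9 in myotubes at 3-fold. Promoters with both marks in myoblasts were 1 against local background, 1 at 3-fold, 1 in thinned libraries, 2 at the outermost start, and 14 and 0 from peaks as deposited and exchanged, and 0 from peaks in myotubes. Cluster bins with both marks were 0.0% at 3-fold in both cell types. Scaled by the median promoter ratio, falls were 4 for H3K27ac and 3 for H3K4me2, and rises 1 for H3K27ac, 1 for H3K36me3, 2 for H3K4me1 and 3 for H3K4me3. With at least 40 reads, falls were 3 for H3K4me1 and 1 for H3K4me3. At a ratio of 1.5, falls were 1 for H3K36me3, 21 for H3K4me2 and 5 for H3K4me3, and rises 1 for H3K27ac and 2 for H3K4me3. The cause was not tested. The depth of 3.92 to 5.49 expected H3K27me3 reads a promoter window limits what can be called.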
